A study of Homo sapiens with 8 samples.

Results

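H3K27me3, the repressive histone mark written by Polycomb repressive complex 2, was examined over 4 cadherin genes, CDH1, CDH2, CDH4 and CDH13, and over CTNND2, the gene of delta-catenin. The 5 genes were placed by fixed hg19 spans, rounded to 1 kb and extended by 10 kb on both sides, and every H3K27me3 island that overlapped an extended span was taken. This gave 116 of the 58144 islands of the line LY19WT and 53 of the 47432 islands of LY19Y646F. The genes had been picked with their coverage in these lists in view, so coverage is described here with no test and supports nothing further.

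The data came from 2 untreated, immortalized B-cell lymphoma lines at passages 10 to 15. LY19WT had wild-type EZH2, the catalytic subunit of the complex. LY19Y646F expressed EZH2-Y646F constitutively from a CMV promoter, and EZH2-Y646F is a lymphoma mutant with a changed catalytic SET domain that favours the step to trimethylation. The labels do not say whether LY19WT carried a vector, whether LY19Y646F was a clone or a pool, or how much wild-type EZH2 it kept. Each line had 3 H3K27me3 ChIP libraries and 1 input library. Island calling had pooled the 3 ChIP libraries, so each measure has 1 value per line, replicate spread is unknown and the lines were not compared by a test. B-cell identity could not be checked against marker genes with the positions used here.

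Classical cadherins are transmembrane proteins that join neighbouring cells through calcium-dependent binding of their outer domains, while their cytoplasmic tails hold catenins that link them to actin. CDH1 encodes E-cadherin of epithelia, CDH2 encodes N-cadherin of neural and mesenchymal cells, and CDH4 encodes R-cadherin of retina and brain. CDH13 encodes T-cadherin, which lacks such a tail and is held in the membrane by a lipid anchor. CTNND2 encodes delta-catenin, a mainly neuronal armadillo protein that binds the juxtamembrane part of classical cadherins. Polycomb complexes often hold genes of other lineages silent, and H3K27me3 is the mark they leave there.

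Islands in LY19WT held a median of 57.3 ChIP reads per kb, and 5% of them had 45.6 or fewer. The corresponding values in LY19Y646F were 41.8 and 35.4 reads per kb. These are densities in raw reads, and they describe the islands that were listed, not a limit for being listed. A stretch without an island can hold the mark at a lower density. The input library has no antibody step, so its density in an island, divided by the autosomal median of its line (8.41 and 8.42 reads per kb for LY19WT and LY19Y646F), is given beside the results as relative input.

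The 5 genes fell into different patterns. CDH4 was covered to 11.2% of its length in LY19WT and to 87.0% in LY19Y646F. CDH13 ran the other way, with 41.7% covered in LY19WT and 2.60% in LY19Y646F. CTNND2 was covered to 30.8% and 34.2%, with most of the covered length in the same place. CDH1 carried a few short islands, over 11.8% of its length in LY19WT and 4.49% in LY19Y646F, and CDH2 carried none in either line.

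**Figure D1:**
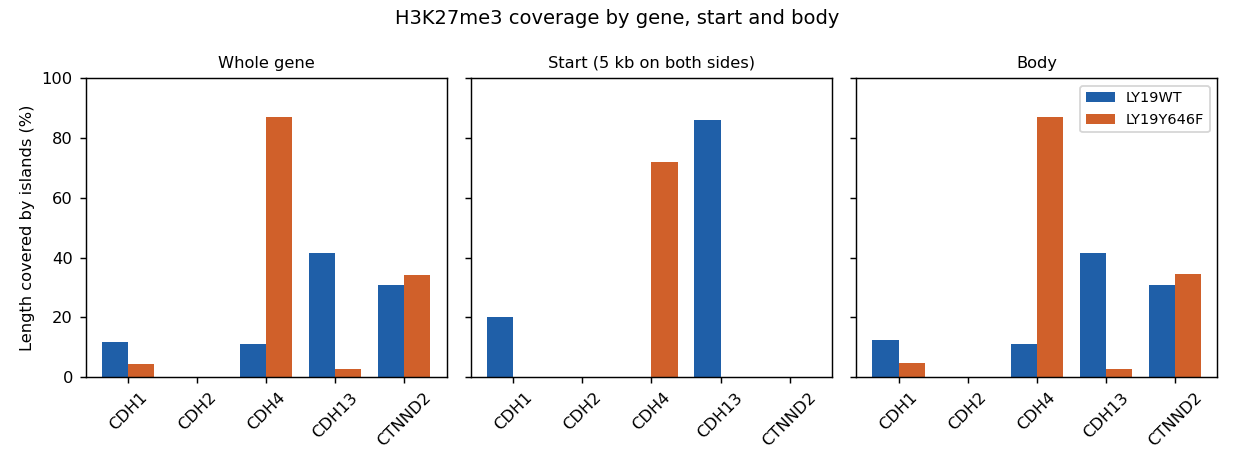
Share of each gene covered by H3K27me3 islands in LY19WT (blue) and LY19Y646F (orange), in percent, for the whole gene, for 5 kb on both sides of its 5′ end and for the rest of the gene; each bar is 1 merged list. CDH4 stands at 87.0% in LY19Y646F and 11.2% in LY19WT, and CDH13 at 2.60% and 41.7%.

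Set against the whole genome, the contrast at CDH4 and CDH13 can be counted in windows of 100 kb. Of the 37 windows that touch the 5 genes, 7 had a LY19Y646F coverage at least 50 percentage points above that of LY19WT, a limit met by 2.42% of all 30580 windows. All 7 were among the 8 windows of CDH4. In the other direction 5 windows met the limit, against 8.75% of all windows, and all 5 were among the 13 windows of CDH13. Neither limit was met by the 2 windows of CDH1, the 3 of CDH2 or the 11 of CTNND2. Because the genes were picked on coverage, these counts only place them in the genome.

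**Figure D2:**
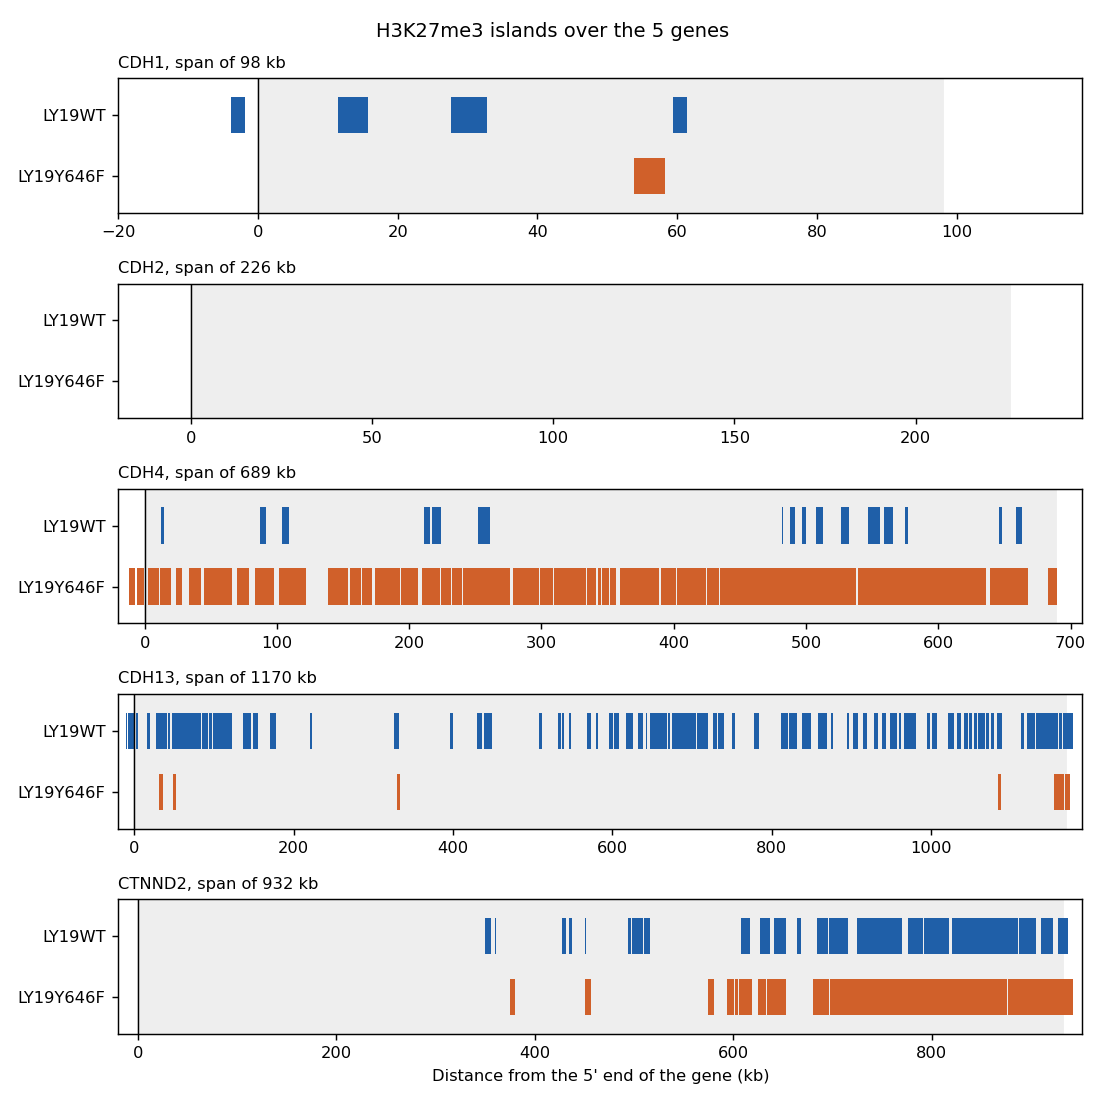
Position of every H3K27me3 island of the 5 genes, as distance in kb from the 5′ end of the gene, with LY19WT in blue, LY19Y646F in orange and the gene shaded in grey. Islands lie along most of CDH4 in LY19Y646F, along CDH13 mainly in LY19WT and mostly toward the 3′ end of CTNND2 in both, and CDH2 is empty.

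CDH1 lies on chromosome 16 from 68771001 to 68869000, downstream of its relative CDH3 and upstream of TANGO6. LY19WT had 4 islands there of 2.0 to 5.2 kb. The island nearest to the start, 68767201 to 68769200, ended 1.8 kb before the 5′ end and held 114 ChIP and 17 input reads, with an authors' fold of 2.18 over scaled input. The others lay 11.4, 27.6 and 59.4 kb into the gene. The widest of them, 68798601 to 68803800, had a fold of 2.19, the next, 68782401 to 68786800, 2.04, and the last, 68830401 to 68832400, 2.41, the highest of the 4. The list median was 2.28, and the 4 folds stood between percentiles 33.9 and 58.2 of the list.

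LY19Y646F had 1 island in CDH1, from 68824801 to 68829200, which held 175 ChIP and 27 input reads. It lay 53.8 kb into the gene and touched none of the 4 LY19WT islands. Its fold was 2.47 (95% interval 1.64 to 3.86), above the list median of 1.90. Its relative input was 0.729, and the 55 other LY19Y646F islands within 5 Mb had a median relative input of 0.754, whereas 171 in LY19WT had 1.00. The part of this lower input in the difference between the lines was not tested. Intervals here and below cover counting error in the merged reads only. CDH1 was thus sparsely marked in both lines. With 1 island in LY19Y646F and 11.8% of the gene covered in LY19WT, the lack of overlap says little about place. When the longer LY19WT list was shortened by p-value until both lists covered equal length, CDH1 kept 0% coverage in LY19WT and the order of the lines turned. CDH4 then kept 3.13% and CDH13 19.4% in LY19WT, in the same order as before. At CDH4 the order could not turn, since the cut lowers only LY19WT, already the lower line there. In both lines the first 1 Mb after the 3′ end of CDH1 held no island.

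CDH2, on chromosome 18 from 25531001 to 25757000 on the minus strand, lay in a long stretch without islands. In LY19WT that stretch ran from 24594001 to 28585800, a length of 3992 kb, and 62 of the 58121 gaps between neighbouring LY19WT islands were at least as long. In LY19Y646F it ran from 22568201 to 29074200, or 6506 kb, a length reached by 34 of 47408 gaps. The median gap was 4.4 kb in LY19WT and 5.0 kb in LY19Y646F. The island nearest to the gene lay 937 kb past its 3′ end in LY19WT and 2963 kb past it in LY19Y646F. Relative input of the islands within 5 Mb was 0.937 over 183 islands in LY19WT and 0.891 over 11 in LY19Y646F. N-cadherin was therefore the member with no called H3K27me3 in either line, at its start or along its body.

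CDH2 shared with CTNND2 a start without an island in both lines, and the 250 bases before the RefSeq start nearest to the 5′ end of each are shown as the sequence of those bare starts. The sequences are from GRCh38.p14, another build than the islands, at chr5:11904447-11904696 and chr18:28177131-28177380, both on the minus strand and written 5′ to 3′, with each CG dinucleotide in capitals.
CTNND2: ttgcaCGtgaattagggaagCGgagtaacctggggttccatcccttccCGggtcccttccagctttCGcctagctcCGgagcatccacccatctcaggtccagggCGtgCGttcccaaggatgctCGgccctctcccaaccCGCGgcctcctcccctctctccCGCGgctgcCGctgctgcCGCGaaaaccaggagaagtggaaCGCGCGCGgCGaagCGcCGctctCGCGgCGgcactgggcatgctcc
CDH2: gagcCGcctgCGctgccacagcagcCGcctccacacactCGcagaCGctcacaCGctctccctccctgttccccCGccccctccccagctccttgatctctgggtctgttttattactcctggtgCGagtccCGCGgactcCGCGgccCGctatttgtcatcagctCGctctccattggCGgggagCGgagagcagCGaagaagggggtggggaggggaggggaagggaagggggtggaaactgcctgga
The motif CG reads the same on both strands. It occurred 25 times in the CTNND2 stretch and 17 times in the CDH2 stretch, and the median over 35116 promoter windows of this length was 11. Fewer occurrences were found in 78.4% of all windows than at CTNND2 and in 61.0% than at CDH2, and 93.9% of all windows held at least 1. GC content was 67.2% and 66.0%, against a median of 58.0%. RefSeq lists a second promoter for each gene, further into it, at chr5:11588918-11589167 and chr18:28036642-28036891 in GRCh38.p14, and there the 250 bases held 4 occurrences each, with a GC content of 42.4% and 42.0%. The promoters at the 5′ ends were thus richer in CG than the median and the second ones poorer, which is a description of the sequence alone.

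CDH4, on chromosome 20 from 59827001 to 60516000, showed the widest difference in coverage of the 5 genes, with 16 islands over 77.0 kb of its 689 kb in LY19WT and 32 islands over 599.2 kb in LY19Y646F. With the 10 kb on each side, LY19Y646F had 34. LY19WT islands measured 0.8 to 9.4 kb, with none over 10 kb, whereas 16 of the 34 LY19Y646F islands exceeded 10 kb and 9 exceeded 20 kb. Of the 77.0 kb covered in LY19WT, 98.7% was also covered in LY19Y646F, and this shared length was 12.7% of the LY19Y646F coverage. The LY19WT islands of CDH4 thus lay almost wholly inside the longer LY19Y646F ones, which covered 87.0% of the gene.

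The longest LY19Y646F islands of CDH4 lay toward the 3′ end of the gene. The widest, 60262201 to 60364800, measured 102.6 kb and ranked 27 by width in its list. It held 5907 ChIP and 813 input reads, a fold of 2.77 (2.58 to 2.99). The next, 60366001 to 60463200, measured 97.2 kb with 5726 and 841 reads and a fold of 2.60, and ranked 34. Between them lay a gap of little more than 1 kb. The highest fold, 3.15, belonged to the island from 60217001 to 60228400, which held 717 ChIP and 87 input reads. In LY19WT the 2 widest islands, 60078801 to 60088200 and 60374201 to 60383000, measured 9.4 and 8.8 kb with folds of 2.46 and 1.79. The highest LY19WT fold, 4.30, came from the shortest island, 60308801 to 60309600, and rested on 66 ChIP and 5 input reads (1.75 to 13.7).

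Each gene was divided into 10 equal parts, counted from the 5′ end. LY19Y646F coverage of CDH4 was 72.3% and 64.2% in parts 1 and 2, between 90.4% and 91.6% in parts 3 to 6, and 97.1%, 98.3% and 100% in parts 7 to 9. It was 74.5% in part 10. LY19WT coverage was 0% in parts 3, 5 and 6 and reached at most 34.4%, in part 8. In LY19Y646F the marked stretch continued before the gene, with 77.0% of the 200 kb before the 5′ end covered, and dropped to 20.2% of the 200 kb after the 3′ end. The same flanks were covered to 27.7% and 1.80% in LY19WT. CDH26, another cadherin gene, is the nearest protein-coding gene upstream of CDH4 in RefSeq, and TAF4, which encodes a subunit of the general transcription factor TFIID, is the nearest downstream.

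The 5′ end of CDH4 itself fell in a gap between LY19Y646F islands. One island, 59821001 to 59826800, ended 0.2 kb before it with 252 ChIP and 52 input reads and a fold of 1.85. The next, 59829601 to 59837600, began 2.6 kb after it with 336 and 77 reads and a fold of 1.67. Both folds were under the list median of 1.90. LY19WT had no island within 5 kb of the start, and its nearest began 12.6 kb into the gene. Relative input of the CDH4 islands was 0.953 in LY19WT and 1.01 in LY19Y646F, and of the islands around the gene 0.991 and 1.12. Input is known only inside called islands, and its part in the difference in coverage was not tested.

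**Figure D3:**
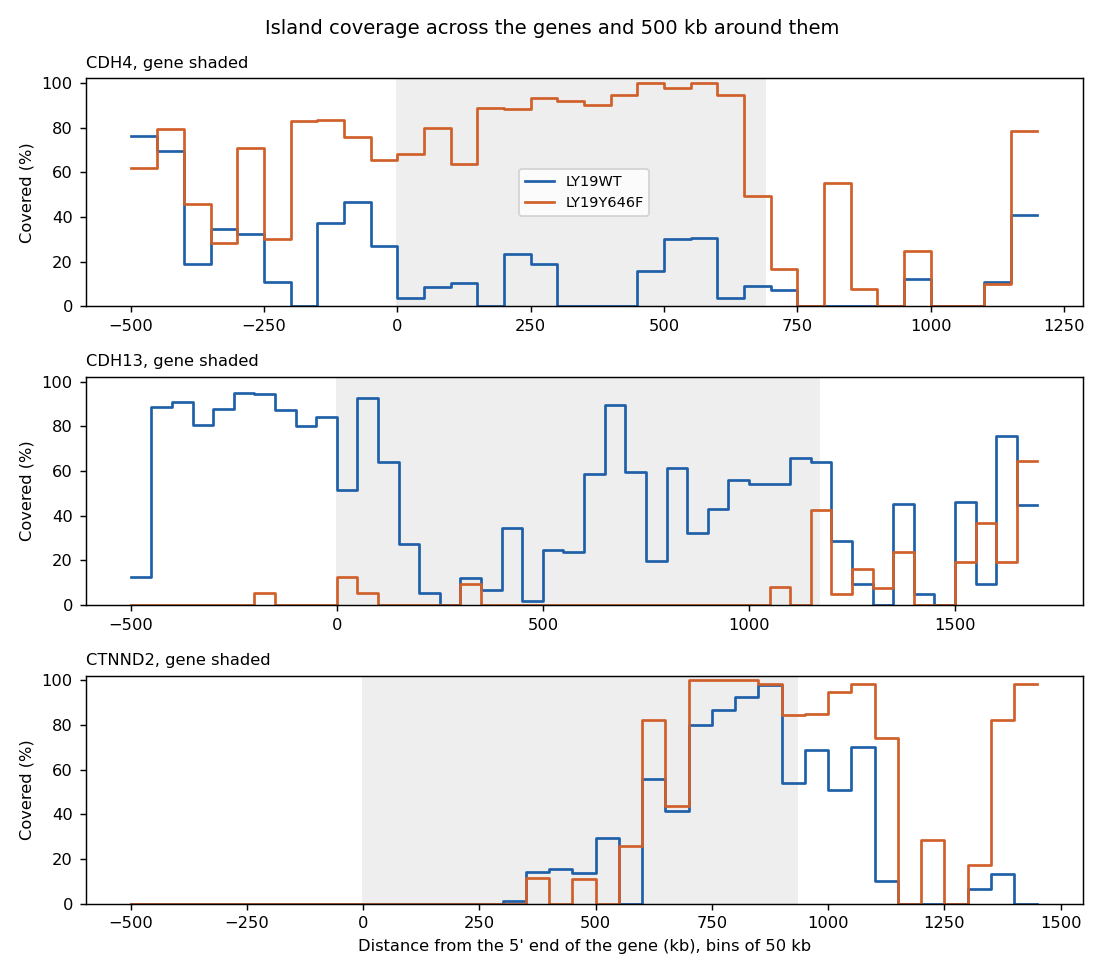
Percent of each 50 kb bin covered by islands in LY19WT (blue) and LY19Y646F (orange), against distance in kb from the 5′ end of CDH4, CDH13 and CTNND2, with the gene shaded and 500 kb on both sides. LY19Y646F coverage drops near the 3′ end of CDH4, LY19WT coverage passes over the start of CDH13 from the sequence before it, and both lines are empty over the start of CTNND2.

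CDH13, on chromosome 16 from 82660001 to 83830000, was marked in LY19WT and nearly bare in LY19Y646F. LY19WT had 72 islands over 488.0 kb of the 1170 kb, and 73 with the 10 kb on each side, of 1.0 to 28.0 kb. LY19Y646F had 7, of 3.6 to 5.8 kb, which covered 30.4 kb. Of that LY19Y646F length 90.8% was also covered in LY19WT, and each of the 7 islands touched a LY19WT island. Only 5.66% of the LY19WT coverage was shared. CDH13 and CDH4 are thus alike in that the shorter set lay mostly within the longer one, with the lines exchanged. The longer set covered 87.0% of CDH4, where most of any shorter set would fall inside it, and 41.7% of CDH13.

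In LY19WT the start of CDH13 was part of a marked stretch that came from before the gene. The island from 82652001 to 82660400 ran over the 5′ end with 478 ChIP and 82 input reads and a fold of 1.90, and the island from 82661801 to 82665000 followed with 200 and 22 reads and a fold of 2.96. The 200 kb before the gene were covered to 86.4% in LY19WT and 1.40% in LY19Y646F. Coverage in LY19WT was 75.4% in part 1 of 10, only 5.13% in part 3, and between 38.5% and 67.9% in parts 6 to 10. The 2 widest LY19WT islands, 83791801 to 83819800 and 83306801 to 83328800, measured 28.0 and 22.0 kb with folds of 2.79 and 2.29. The highest fold, 4.10, belonged to the island from 82809401 to 82815400, with 416 ChIP and 33 input reads. LY19WT thus had 2 marked parts in CDH13, at the start and along the 3′ part, with a sparse stretch between them.

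The 7 islands of CDH13 in LY19Y646F lay at 3 places. From the 5′ end, 2 lay 30.8 and 49.2 kb into the gene, 1 lay at 329.4 kb, and 4 lay at 1084 kb or further, close to the 3′ end. None lay within 5 kb of the start. The widest, 83821201 to 83827000, held 202 ChIP and 44 input reads with a fold of 1.75. The highest fold, 2.82, belonged to the island from 83828401 to 83833800 at the 3′ end, with 222 and 30 reads, while the island from 82690801 to 82696200, also among those of 5.4 kb, had a fold of 2.63. Folds of 6 of the 7 were above the list median.

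Both raw densities in these 7 CDH13 islands were low for LY19Y646F. ChIP density ran from 34.4 to 41.1 reads per kb, under the list median of 41.8. Relative input ran from 0.594 to 0.901, below the autosomal median in all 7. The 181 other LY19Y646F islands within 5 Mb had a median relative input of 0.763, and the 342 of LY19WT had 0.969. A fold divides by input, so a low input raises it at equal ChIP density. The part of low input in the sparse LY19Y646F coverage of CDH13 was not tested. Past the 3′ end, where HSBP1 follows, LY19Y646F islands were less sparse: coverage of the next 1 Mb was 19.3%, against 28.4% in LY19WT, at a relative input of 0.726.

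CTNND2, on chromosome 5 from 10972001 to 11904000 on the minus strand, was marked over much the same part in both lines. LY19WT had 23 islands over 286.8 kb of its 932 kb, and LY19Y646F had 11 over 318.8 kb. The shared length of 244.6 kb was 85.3% of the LY19WT and 76.7% of the LY19Y646F coverage. The Jaccard index, which divides the length in both lists by that in at least 1, was 0.678 at CTNND2, against 0.127 at CDH4, 0.0562 at CDH13 and 0 at CDH1. The index was highest at CTNND2 among these 4 genes, and it is not defined at CDH2, which is empty in both lists. It cannot exceed the shorter covered length divided by the longer. Those lengths were 77.0 and 599.2 kb at CDH4 and 30.4 and 488.0 kb at CDH13. The low index at these 2 genes thus mostly restates their unequal coverage.

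Islands of CTNND2 lay mainly toward its 3′ end in both lines. Parts 6 to 10 as 1 stretch were covered to 57.9% in LY19WT and 66.0% in LY19Y646F, and parts 1 to 5 to 3.69% and 2.45%. No island of either line lay in parts 1 to 3 of 10, and the nearest island began 349.4 kb into the gene in LY19WT and 374.6 kb in LY19Y646F. In part 6 coverage was 21.7% in LY19WT and 0% in LY19Y646F, and in part 7 it was 32.6% and 60.7%. In part 8 it was 57.9% in LY19WT and 70.0% in LY19Y646F, in part 9 it was 89.9% and 100%, and in part 10 it was 87.1% and 99.1%. The marked part continued past the 3′ end, toward DAP, with 52.7% of the next 200 kb covered in LY19WT and 89.1% in LY19Y646F. Before the 5′ end, toward DNAH5, no island lay within 1796 kb in LY19WT and 2088 kb in LY19Y646F.

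LY19Y646F joined most of the marked part of CTNND2 into 1 island, from 11027801 to 11206600, of 178.8 kb with 8759 ChIP and 2228 input reads. It ranked 4 by width in its list. The next widest, 10961801 to 11027000, measured 65.2 kb with 3619 and 875 reads. In LY19WT the same part was split into shorter islands, of which the 2 widest, 11134001 to 11178800 and 11017201 to 11059800, measured 44.8 and 42.6 kb. The first of these held 2953 ChIP and 379 input reads and the other 3268 and 326. The highest LY19WT fold, 3.27, came from 11188801 to 11207800, and the highest of LY19Y646F, 1.80, from 11285001 to 11298000.

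Over the islands called in each line, the ratio over input in CTNND2 was lower in LY19Y646F under the authors' scaling, at similar coverage. Summed over its islands, ChIP over scaled input was 2.69 (2.57 to 2.80) in LY19WT and 1.51 (1.46 to 1.56) in LY19Y646F, a log2 ratio of -0.83 (counting interval -0.91 to -0.75). The sums run over different stretches, 23 islands in LY19WT and 11 in LY19Y646F. The folds of the LY19WT islands ran from 1.40 to 3.27 and those of LY19Y646F from 1.27 to 1.80, so the 2 ranges overlapped. Folds of all 11 LY19Y646F islands lay under the list median of 1.90, whereas 14 of the 23 LY19WT islands lay above theirs. Islands were called matched when their overlap was 50% or more of each. CTNND2 had 4 matched pairs, and the fold was lower in LY19Y646F in all 4, as it was in 72.7% of 8368 matched pairs over the whole lists. The median log2 ratio was -0.62 in the 4 pairs and -0.27 in all pairs. Scaled by total ChIP reads in islands instead of input, the CTNND2 ratio turned to 0.68. Under that scaling the median was 0.80 in the 4 pairs and 0.55 in all pairs.

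Input density moved with that difference. ChIP density in CTNND2 islands was 65.9 (LY19WT) and 49.0 (LY19Y646F) reads per kb, each above its list median, while input density was 7.99 and 12.4. Relative input was 0.95 in LY19WT and 1.47 in LY19Y646F. Within the gene, the 9 LY19Y646F islands over 500 kb from the 5′ end had relative inputs of 1.12 to 1.65, and the 2 nearer to it had 0.933 and 1.00, a division chosen after the values were seen. LY19WT islands had medians of 0.948 and 0.966 in these parts. Past the 3′ end the median over 25 LY19Y646F islands in 1 Mb was 1.42, and over 32 of LY19WT 1.06. The part of higher input in the lower fold was not tested.

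**Figure D4:**
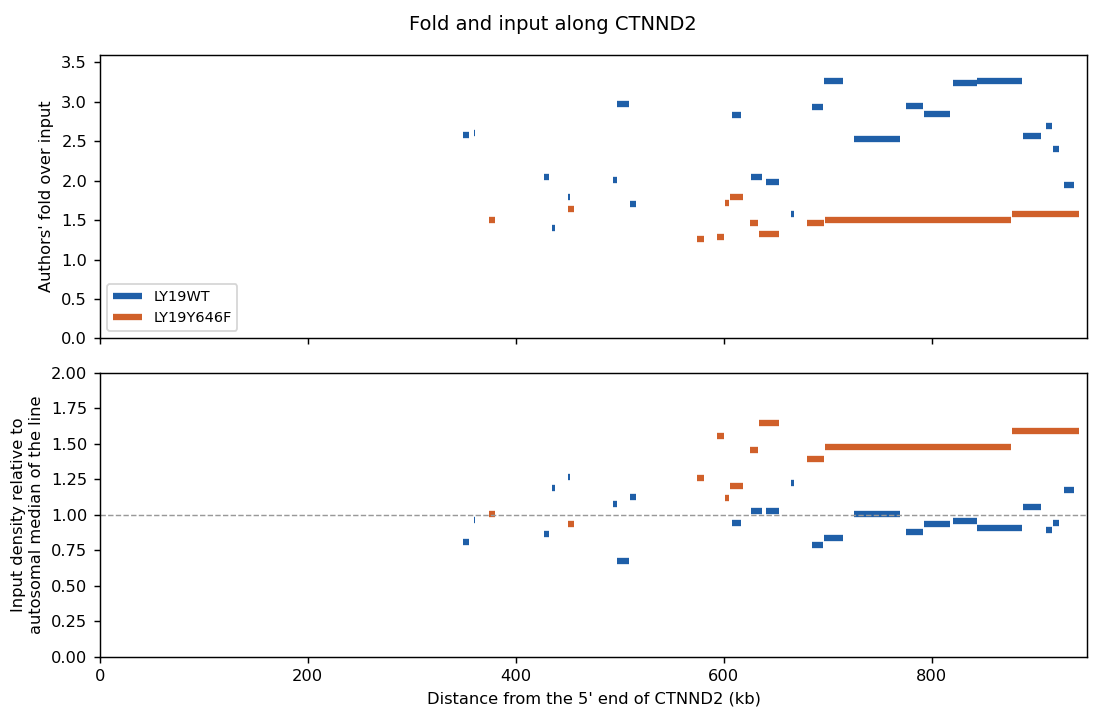
Authors' fold over input (upper panel) and relative input density (lower panel) of each CTNND2 island, drawn from its first to its last base as distance in kb from the 5′ end, for LY19WT (blue) and LY19Y646F (orange). LY19Y646F folds lie between 1.27 and 1.80, and its relative input reaches 1.65 in the 3′ part and is 1.00 and 0.933 at the 2 islands nearest to the start.

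Coverage of a start did not always go with coverage of the body. The window of 5 kb on both sides of the 5′ end was covered to 86.0% at CDH13 and 20% at CDH1 in LY19WT, and to 72.0% at CDH4 in LY19Y646F. It held no island at the other 3 genes in LY19WT or at the other 4 in LY19Y646F. Bodies, the spans past those 5 kb, were covered to 12.5% and 4.73% at CDH1, 11.3% and 87.3% at CDH4, 41.6% and 2.61% at CDH13, and 30.9% and 34.4% at CTNND2, in LY19WT and LY19Y646F. CTNND2 was the gene with a marked body and a bare start in both lines. CDH4 in LY19WT and CDH13 and CDH1 in LY19Y646F had islands in the body alone.

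Raw densities set the genes apart within LY19Y646F more than within LY19WT. In LY19WT, ChIP density summed over the islands of a gene was 54.3 reads per kb at CDH1, 54.0 at CDH4, 57.5 at CDH13 and 65.9 at CTNND2, and input density lay between 7.99 and 8.26. In LY19Y646F, ChIP density was 39.8 at CDH1, 52.2 at CDH4, 37.1 at CDH13 and 49.0 at CTNND2. Input density there was 6.14, 8.54, 6.05 and 12.4 in the same order. In LY19Y646F, CDH4 was the densest in ChIP reads at an input near the autosomal median, and both genes of chromosome 16 were low in both.

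Enrichment over input, summed over the islands of each line, had log2 ratios of LY19Y646F to LY19WT between 0.05 and 0.19 at 3 of the genes with the authors' scaling. The islands summed in the 2 lines were not the same ones, so these ratios do not compare the same stretches. At CDH4 it was 2.19 (2.02 to 2.39) in LY19WT and 2.33 (2.27 to 2.40) in LY19Y646F, a log2 ratio of 0.09 (-0.04 to 0.22). At CDH13 it was 2.27 (2.19 to 2.34) and 2.34 (2.02 to 2.72), a log2 ratio of 0.05 (-0.17 to 0.26). At CDH1 it was 2.17 (1.77 to 2.67) and 2.47 (1.64 to 3.86), a log2 ratio of 0.19 (-0.46 to 0.84). These 3 intervals include 0, which does not show that the levels were equal, and the values depended on the scaling. The sign turned at all 3 when input alone was used. That scaling leaves out the constant of each list, which lowers every log2 ratio by the same amount. Scaled by total ChIP reads in islands the ratios were 1.06 at CDH4, 0.48 at CDH13 and 0.66 at CDH1. The median over all 8368 matched pairs was then 0.55. Single islands spread more widely than these sums: the lowest and highest folds at CDH4 were 1.43 and 4.30 for LY19WT, and 1.23 and 3.15 for LY19Y646F. Those at CDH13 were 1.5 and 4.10 for LY19WT, and 1.75 and 2.82 for LY19Y646F.

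**Figure D5:**
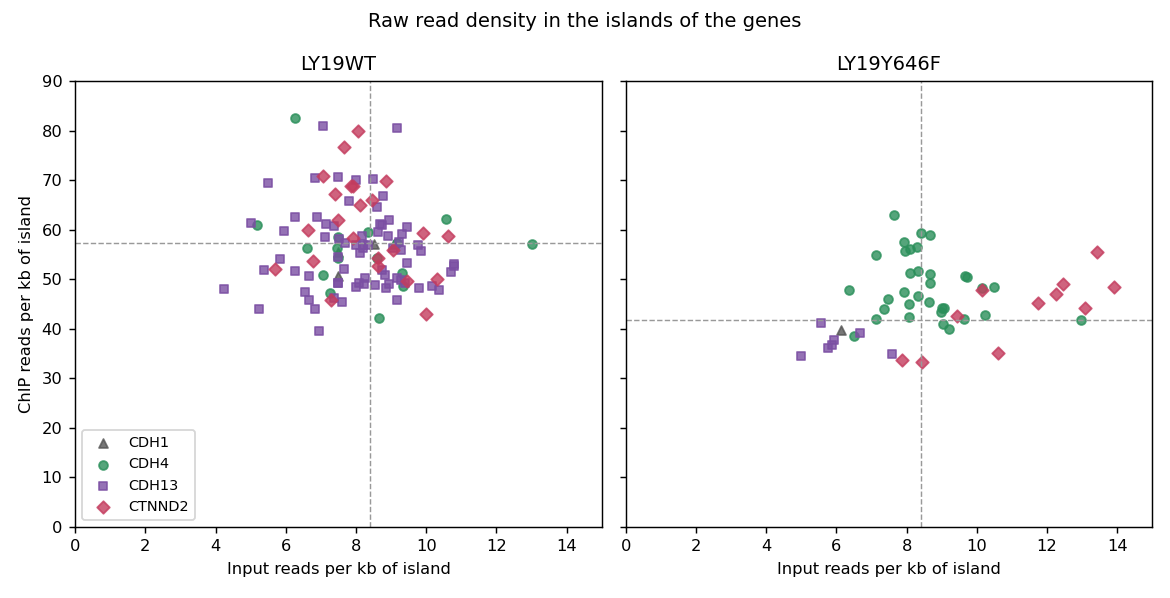
ChIP reads per kb against input reads per kb for each island of CDH1, CDH4, CDH13 and CTNND2 in LY19WT (left) and LY19Y646F (right), with dashed lines at the median ChIP density of the list and at the autosomal median of input. In LY19Y646F the CDH13 islands lie at 34.4 to 41.1 ChIP reads per kb left of the input line, and most CTNND2 islands lie right of it.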

How the data were processed

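H3K27me3 ChIP-seq islands of LY19WT and LY19Y646F were analysed (3 ChIP libraries and 1 input each). The submitters' processing notes name the build hg19 and the tools SICER, bedtools, SAMtools 1.3.1 and Bowtie2 2.2.9. Per the labels, replicates were merged and islands were called against input at an FDR of 0.001. The deposited counts are raw ChIP and input reads per island. Fold, as deposited, is the ratio of these counts over a constant (3.07 for LY19WT, 2.62 for LY19Y646F). The deposited p-value and FDR are the authors' and were used to filter islands. Islands of LY19WT held 37556030 ChIP reads and those of LY19Y646F 17410034.

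The members, lists and tests were chosen with earlier results of these data known. All 5 genes are named, and of their islands the 2 widest, the one of highest fold and those within 5 kb of the start. Gene spans were given for hg19, and no other genes were placed. CDH1 and CDH13 were taken as plus-strand genes from general knowledge. The RefSeq CDH2 gene is 244 kb long, against 226 kb here. Coverage is covered length over span length. Intervals are exact binomial (Clopper-Pearson, 95%) for ChIP against input reads and a normal approximation for log2 ratios. They cover counting error only, since replicates were merged, and can be too narrow because PCR copies are not independent. RefSeq promoters (GRCh38.p14) matched 3 of the 5 genes, and for CDH4 none at its 5′ end. Alternatives were FDR limits, joined islands, other windows, an equal-length list and other scalings. The coverage functions were tested on simulated islands. Calculations used scipy 1.17.1, pandas 2.3.3 and numpy 2.4.6 in Python 3.11.15.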

Additional observations from a re-analysis of the deposited data

How the results depend on the processing

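No paired analysis was possible because replicates had been merged before islands were called, and for the same reason no replicate could be left out. Of 109 alternative values, 71 stayed within counting or binomial error (200 bp units) of the main value, and 34 lay outside it. The other 4 changed sign. Units within an island are not independent, so this error only sorts the values and measures no spread. The 71 include every value at CDH2 and at starts without an island, all 0%. At CDH2, stricter FDR limits, joining and a shortened LY19WT list could not change that. The sign changed at CTNND2 with total ChIP reads, and the cause was not tested. It changed at CDH1, CDH4 and CDH13 with input alone, which leaves out the constant of each list and so shifts all log2 ratios equally. The order of the lines in coverage held for CDH4, CDH13 and CTNND2 under every coverage alternative tried. At CDH1 the order turned when the LY19WT list was cut to the covered length of LY19Y646F. That cut left coverage of 0% at CDH1, 3.13% at CDH4, 19.4% at CDH13 and 24.1% at CTNND2 in LY19WT. It could not turn the order at CDH4 and CTNND2, where LY19WT was already the lower line. At CTNND2 the lines stayed close under other alternatives. Coverage there was 33.9% (LY19WT) and 34.7% (LY19Y646F) with joined islands, and 29.9% and 31.2% at an FDR of at most 1e-10. At an FDR of at most 1e-10, coverage was 9.87% at CDH4 and 40.4% at CDH13 in LY19WT, and 85.1% at CDH4 and 31.2% at CTNND2 in LY19Y646F, and the bodies were covered to 9.94%, 40.2%, 85.3% and 31.3%. With islands joined across 5 kb, coverage was 13.2% at CDH4, 48.0% at CDH13 and 33.9% at CTNND2 in LY19WT, and 94.5% at CDH4 in LY19Y646F. With 2 kb on both sides, starts were covered to 5.00% at CDH1 and 65.0% at CDH13 in LY19WT and 45% at CDH4 in LY19Y646F, and with 10 kb to 10.0% at CDH1 and 63.0% at CDH13 in LY19WT. The median fold was 2.21 at CDH4 in LY19Y646F and 2.57 at CTNND2 in LY19WT. Log2 ratios of LY19Y646F to LY19WT scaled by input alone were -0.039 at CDH1, -0.14 at CDH4, -0.18 at CDH13 and -1.06 at CTNND2. Scaled by total ChIP reads in islands they were 0.66 at CDH1, 1.06 at CDH4, 0.48 at CDH13 and 0.68 at CTNND2. The median over all matched pairs was then 0.55. From matched pairs under the authors' scaling the ratios were 0.28 at CDH13 and -0.62 at CTNND2, and CDH1 and CDH4 had no such pair. In windows of 50 kb, 14 of 68 member windows and 2002 of all 61146 were covered more in LY19Y646F, and 7 and 5812 in LY19WT. With a limit of 25 points in windows of 100 kb, 9 of 37 member windows and 5242 of all 30580 were covered more in LY19WT, and 7 and 2452 in LY19Y646F.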
